A study of Homo sapiens with 10 samples.

Results

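The gene set described here holds 57 genes of mitosis: kinesin motors, kinetochore and spindle proteins, the spindle checkpoint, the kinases and cyclins that drive mitotic entry, and the proteins that shape mitotic chromosomes. They were taken by gene symbol from the gene count table of the series. The table used here holds 56 of them among 40664 genes, and all 56 were among the 13990 genes tested. For KIF15, the remaining kinesin, expression was not analysed here, and only its promoter is counted below. The cells were hTERT RPE-1, an immortal human line of retinal pigment epithelium that carries added telomerase. The substrate had a stiffness of 10 kPa (soft) or 120 kPa (stiff), and cells were either controls or treated with siNemp1, an siRNA against NEMP1, a protein of the inner nuclear membrane. RNA sequencing covered 4 groups: control at 10 kPa (2 libraries), siNemp1 at 10 kPa (2 libraries), control at 120 kPa (3 libraries) and siNemp1 at 120 kPa (3 libraries). The labels do not say what the control cells received, how long the treatment lasted or whether replicates were separate cultures, so p-values measure only how far these libraries differ, and part of that may be technical.

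Most mitotic genes are switched on late in the cell cycle. In quiescent cells and in G1 the DREAM complex keeps them off by binding a promoter element called the cell cycle genes homology region. In G2 and mitosis MYBL2 and the forkhead factor FOXM1 activate them, with NF-Y bound at nearby CCAAT boxes. Their summed RNA in a culture therefore follows how many cells are in G2 and mitosis as well as how much each cell makes. Bulk libraries cannot tell apart fewer cells in that phase and less RNA per cell.

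Promoter sequences show the elements that these genes share. The RefSeq promoter table (build GRCh38.p14) held an entry for 49 of the 57 genes, each covering 250 bases before and 50 bases after the start. Both strands were searched for TTTGAA, the core of the cell cycle genes homology region, for its variant form TTCGAA, for the NF-Y box CCAAT and for the E2F motif GGCGGGAA. TTTGAA occurred in 71.4% of the mitotic promoters against 15.4% of all 27305 promoters of the table and 10% of the 11023 promoters of tested genes. CCAAT occurred in 71.4%, against 35.7% of all promoters and 36.7% of those of tested genes. The NF-Y box together with either core form occurred in 59.2%, against 6.58% and 4.94%. GGCGGGAA occurred in 4.08%, or 2 of 49, against 3.18% of all promoters and 4.99% of those of tested genes. The 4 promoters below belong to the 2 genes with the largest decrease under siNemp1 at 120 kPa (KIF23 and MKI67) and the 2 genes with the smallest change (PTTG1 and CDC20). They are printed 5′ to 3′ on the gene's strand, 250 bases up to the start, with matches to the core forms and to the NF-Y box on either strand in capitals. Matches may overlap, as in the TTTGAATTGG of MKI67 and the CCAATTGG of PTTG1.
KIF23, chr15:69414099-69414348, plus strand: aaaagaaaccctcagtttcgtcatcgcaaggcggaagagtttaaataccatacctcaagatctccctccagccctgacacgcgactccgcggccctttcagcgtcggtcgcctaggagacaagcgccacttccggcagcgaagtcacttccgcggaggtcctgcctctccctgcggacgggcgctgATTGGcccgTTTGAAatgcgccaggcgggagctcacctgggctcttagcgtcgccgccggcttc
MKI67, chr10:128126424-128126673, minus strand: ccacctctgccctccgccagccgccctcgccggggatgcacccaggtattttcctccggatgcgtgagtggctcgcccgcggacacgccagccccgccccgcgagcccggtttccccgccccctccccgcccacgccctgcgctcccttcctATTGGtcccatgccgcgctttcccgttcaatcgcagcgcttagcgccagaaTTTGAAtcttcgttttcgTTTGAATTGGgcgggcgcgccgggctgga
PTTG1, chr5:160421605-160421854, plus strand: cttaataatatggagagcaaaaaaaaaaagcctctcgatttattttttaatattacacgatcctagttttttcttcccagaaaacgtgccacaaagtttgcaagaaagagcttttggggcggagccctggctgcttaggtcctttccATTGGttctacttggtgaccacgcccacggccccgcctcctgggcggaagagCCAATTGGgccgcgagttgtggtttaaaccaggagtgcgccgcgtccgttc
CDC20, chr1:43358731-43358980, plus strand: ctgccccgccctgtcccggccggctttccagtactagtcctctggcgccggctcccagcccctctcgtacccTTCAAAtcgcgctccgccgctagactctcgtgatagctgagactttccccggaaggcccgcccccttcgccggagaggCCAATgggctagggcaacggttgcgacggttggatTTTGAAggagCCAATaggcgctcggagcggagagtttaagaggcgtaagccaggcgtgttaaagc
KIF23, MKI67 and CDC20 each had a TTTGAA match in this window and all 4 had CCAAT. Either core form occurred in 71.4% of the 7 promoters available for genes that fell at 120 kPa (named below) and in 78% of the promoters of the other 41 tested genes. A match is a string of letters and not a measured binding site.

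The libraries held 17.95 to 23.8 M estimated read counts, of which the 56 genes took 53663 to 82037, or 0.2436% to 0.3715%. NEMP1, the target of the siRNA, stood at 14.08 and 17.31 CPM (counts scaled to 1000000 per library) in the control libraries at 10 kPa and at 8.22 and 7.625 with siNemp1. At 120 kPa it stood at 18.29, 14.05 and 14.07 CPM in the controls and 7.521, 6.699 and 4.109 with siNemp1, so the groups did not overlap at either stiffness. Of the line's markers, KRT8, KRT18, BEST1, MITF and VIM were expressed, while the mature pigment epithelium genes RPE65 and RLBP1 were at or near 0, as were CDH1 and EPCAM. Replicates at 120 kPa lay far apart, with a chi-square per gene of 23 to 100.7 between libraries of a group, against 2.686 and 6.906 at 10 kPa. The siNemp1 library of replicate 3 at 120 kPa stood farthest out: it was the lowest of the 10 libraries for 43 of the 56 mitotic genes (76.8%, against 20.6% of all tested genes). Values without it, or without its pair, follow below for the results that it moves most.

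**Figure D1:**
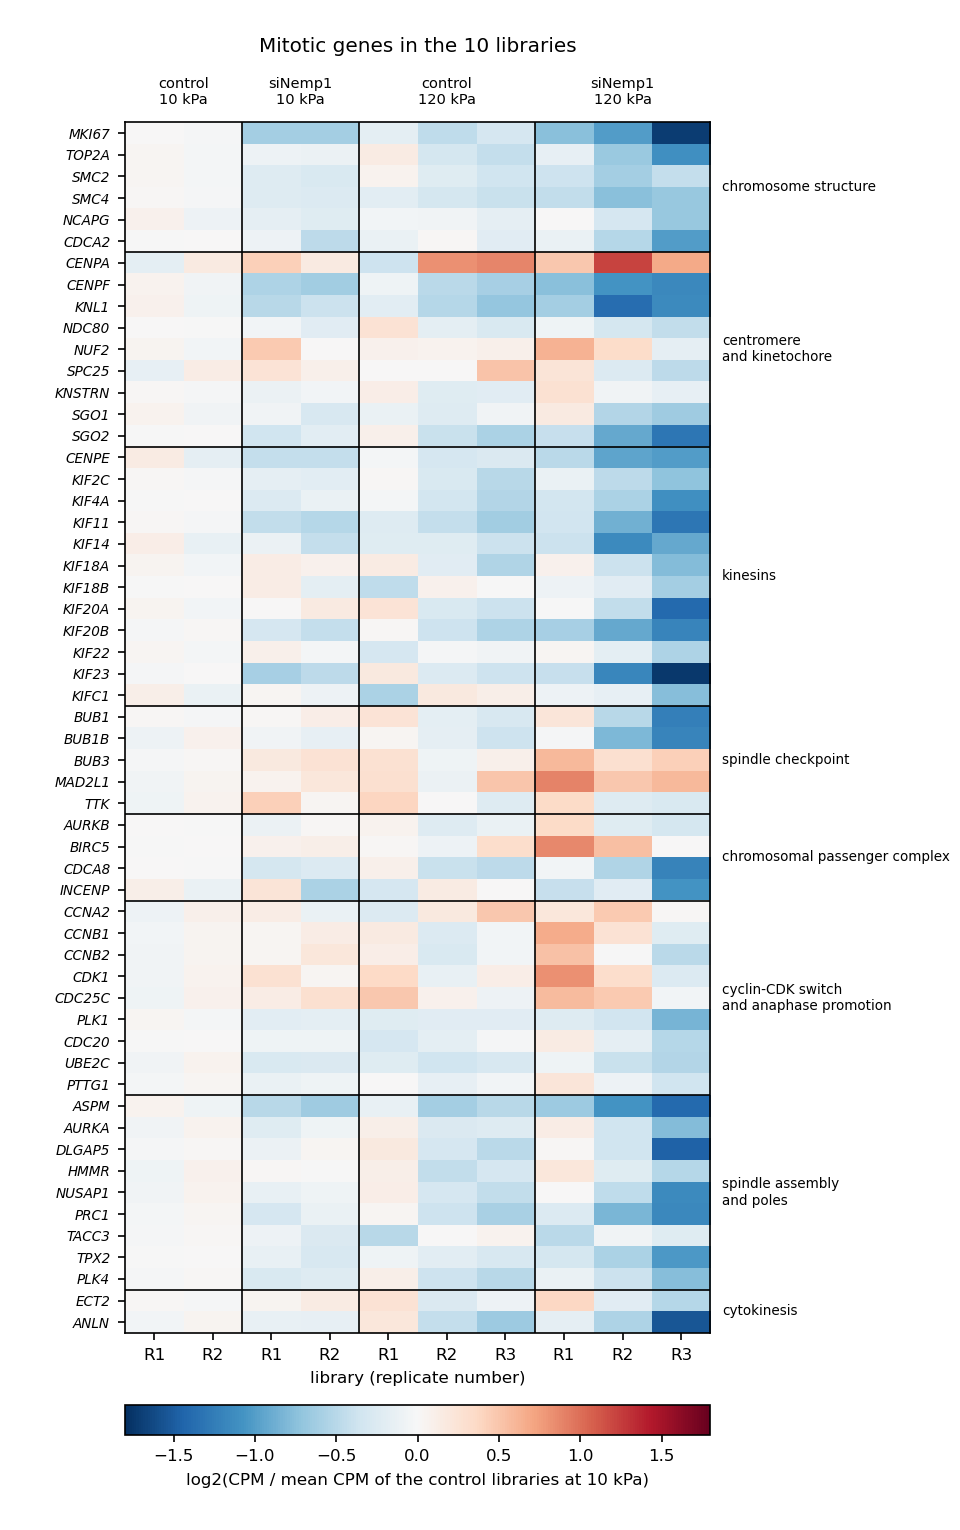
Each row is a mitotic gene and each column a library, and colour gives the log2 ratio of CPM to the mean of the control libraries at 10 kPa, with genes grouped by role. The siNemp1 library of replicate 3 at 120 kPa is the lowest of the 10 for 43 of the 56 genes, and BUB3 is higher in every siNemp1 library than in every control library of the same stiffness.

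On the stiff substrate most mitotic genes had lower estimates in siNemp1 cells than in controls. Genes called with replicate number as a block shared by both stiffnesses were of chromosomes, kinetochores, motors and spindle poles. Other fits given below also called genes of the spindle checkpoint, of cytokinesis and of the chromosomal passenger complex. In the fit of the 4 group means (edgeR's quasi-likelihood test, Benjamini-Hochberg adjusted over all tested genes, called at an adjusted p under 0.05), 0 of the 56 genes passed. In that fit 0% of all genes passed, while 14 of the 56 had an unadjusted p under 0.05. DESeq2 called 6, and 2.73% of the genes it tested. The estimate was below 0 for 41 of the 56, and the median log2 fold change of the 56 was −0.23, against 0.006 over all tested genes. Relative to the controls at 10 kPa, the median log2 level of the 56 was 0.03, −0.21 and −0.26 in controls of replicates 1, 2 and 3. With siNemp1 it was −0.03, −0.35 and −0.70, so the groups overlapped, although siNemp1 was lower within each replicate number. Same-numbered control and siNemp1 libraries deviated together at 120 kPa, and once replicate number was a block, shared by both stiffnesses, 8 genes fell and 0 rose: MKI67, CENPF, SGO2, CENPE, KIF20B, KIF23, ASPM and TPX2. In the blocked fit 8.75% of all tested genes were called: 2.51% fell and 6.24% rose. The median log2 fold change of the 56 genes was −0.25 with the block, and 43 estimates were below 0. A block within each stiffness, which ties no library at 10 kPa to one at 120 kPa, called 16 lower and 2 higher, when 15.5% of all genes were called (5.48% lower and 10% higher), and its median was −0.24. The 8 were among the 16, with ANLN, BUB1B, KIF14, KIF4A, KNL1, PRC1, SMC4 and TOP2A, and the 2 higher were BUB3 and MAD2L1. These calls rest on few pairs. Without pair 2 none of the 56 was called, when 2 genes of all tested were (0.0144%), and 21 of the 56 still had an unadjusted p under 0.05. The median was then −0.26, and 46 estimates were below 0. Without pair 1, 21 genes fell and 1, BUB3, rose, with 11.2% of all genes called. Without pair 3, which holds the library that stands out, 6 fell and 1, BIRC5, rose, with 5.49% of all genes called. The median was then −0.17, against −0.03 over all genes tested in that fit. Of the 8, ASPM, CENPE, CENPF, KIF20B and MKI67 were among these 6, while KIF23, SGO2 and TPX2 had log2 fold changes of −0.79, −0.55 and −0.35 with adjusted p of 0.076, 0.13 and 0.076. In the fit of group means, the median was −0.08 without the siNemp1 library of replicate 3, against −0.04 over all genes tested there. It was −0.41 without the siNemp1 library of replicate 1, against 0.002 over all genes.

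**Figure D2:**
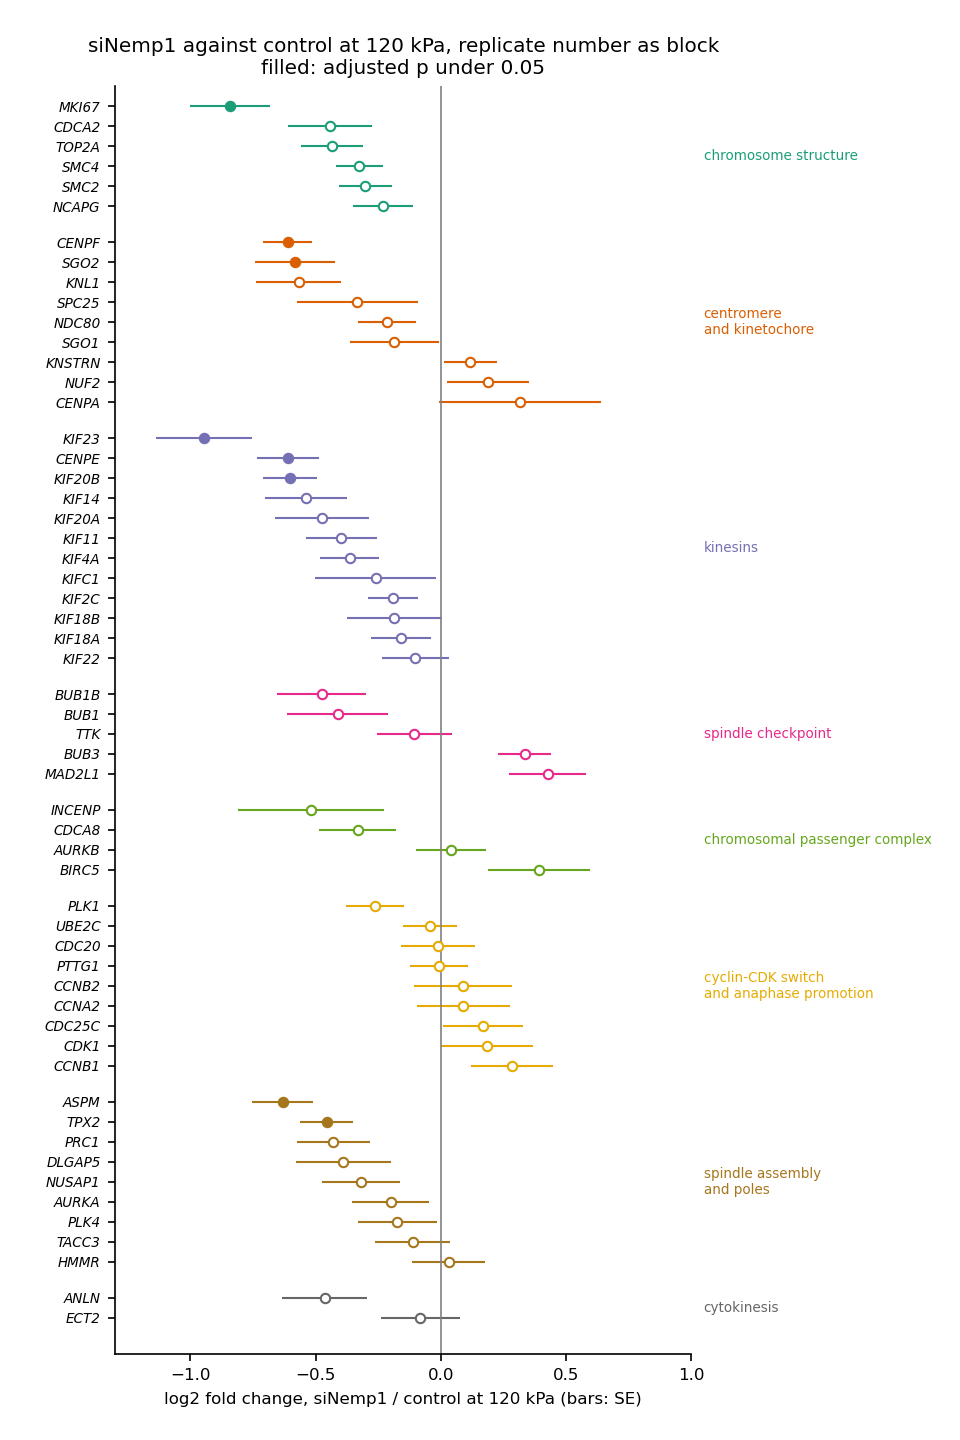
Points give the log2 fold change of siNemp1 over control at 120 kPa with the replicate number as a block, bars are its standard error, and filled points have an adjusted p under 0.05. All 12 kinesins and all 6 chromosome genes lie left of 0, and the 8 filled points are MKI67, CENPF, SGO2, KIF23, CENPE, KIF20B, ASPM and TPX2.

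Among the genes of chromosome structure, all 6 had estimates below 0 at 120 kPa and 1 fell with the block, with a median log2 fold change of −0.38. MKI67 (ENSG00000148773, chr10:128096659-128126385, GRCh38) encodes Ki-67, which coats mitotic chromosomes and marks proliferating cells. It stood at 91.34, 74.54 and 83.36 CPM in the control libraries of replicates 1, 2 and 3 and at 60.86, 50.95 and 31.53 CPM with siNemp1. Every siNemp1 library lay below every control library. Its log2 fold change was −0.84 (SE 0.16, adjusted p = 0.016) with the block and −0.80 (SE 0.20, adjusted p = 0.089) without it. TOP2A, the topoisomerase that untangles sister DNA, stood at 192.9, 139.6 and 129.6 CPM in controls and 157.7, 110.2 and 81.06 CPM with siNemp1. The groups overlapped, although siNemp1 was lower within each replicate number, and the blocked log2 fold change of −0.43 (SE 0.13) missed the threshold (adjusted p = 0.055). SMC4, a condensin core subunit, stood at 66.58, 60.49 and 57.54 CPM in controls and 55.5, 44.89 and 47.15 CPM with siNemp1. Its groups did not overlap, and its blocked log2 fold change was −0.32 (SE 0.09, adjusted p = 0.057). The remaining chromosome genes, the condensin subunits SMC2 and NCAPG and the phosphatase subunit CDCA2, had blocked log2 fold changes of −0.30, −0.23 and −0.44, none of which passed.

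Of the 9 genes of the centromere and kinetochore, the structure that ties chromosomes to spindle microtubules, 2 fell with the block and 6 had estimates below 0. CENPF (ENSG00000117724, chr1:214603195-214664588), a large outer kinetochore protein, stood at 96.36, 72.45 and 67.1 CPM in controls and 60.56, 48.02 and 45.29 CPM with siNemp1. Every siNemp1 library was below every control library, with a blocked log2 fold change of −0.61 (SE 0.10, adjusted p = 0.0085). SGO2 (ENSG00000163535, chr2:200510008-200583782), a shugoshin that protects centromeric cohesion, stood at 24.35, 17.3 and 15.5 CPM in controls and 17.2, 12.13 and 9.299 CPM with siNemp1. Replicate 1 with siNemp1 lay above control replicate 3, so the SGO2 groups overlapped, and the blocked log2 fold change was −0.58 (SE 0.16, adjusted p = 0.046). KNL1, the scaffold on which checkpoint kinases assemble, stood at 15.12, 12.07 and 10.61 CPM in controls and 11.21, 6.65 and 7.742 CPM with siNemp1. Its blocked log2 fold change of −0.57 (SE 0.17) did not pass (adjusted p = 0.062). The NDC80 complex, which grips the microtubule, gave estimates of both signs: the blocked log2 fold changes were −0.22 for NDC80, 0.19 for NUF2 and −0.33 for SPC25, none past the threshold. Without pair 3 these were −0.29, 0.37 and −0.04. CENPA, the histone variant of centromeres, was low, at 1.086 to 3.276 CPM over all libraries at 120 kPa.

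Kinesins are motors that slide, cross-link or shorten microtubules, and all 12 tested had estimates below 0 at 120 kPa, from −0.95 for KIF23 to −0.10 for KIF22 with the block (median −0.38). Of these 3 fell. KIF23 (ENSG00000137807, chr15:69414246-69448427), the motor of the centralspindlin complex that bundles the midzone before cytokinesis, stood at 76.4, 56.69 and 52.06 CPM in controls and 50.43, 29.78 and 20.24 CPM with siNemp1. The groups did not overlap, and the blocked log2 fold change was −0.95 (SE 0.19, adjusted p = 0.023). CENPE (ENSG00000138778, chr4:103105806-103198409), which carries chromosomes to the spindle equator, stood at 29.1, 24.3 and 24.94 CPM in controls and 21.33, 15.45 and 14.92 CPM with siNemp1. Its blocked log2 fold change was −0.61 (SE 0.12, adjusted p = 0.016). KIF20B (ENSG00000138182, chr10:89701610-89774939), a motor of late cytokinesis, stood at 61.56, 46.83 and 41.24 CPM in controls and 40.01, 32.08 and 26.64 CPM with siNemp1. Neither CENPE nor KIF20B overlapped between groups, and KIF20B had a blocked log2 fold change of −0.60 (SE 0.11, adjusted p = 0.011). KIF11, the Eg5 motor that pushes spindle poles apart, stood at 24.89, 21.71 and 19.08 CPM in controls and 23.1, 16.14 and 11.89 CPM with siNemp1. These overlapped, with a blocked log2 fold change of −0.40 (SE 0.14, adjusted p = 0.10). KIF20A, the MKLP2 motor of the central spindle, had a blocked estimate of −0.48 (SE 0.19), with the siNemp1 library of replicate 3 at 40.83 CPM against 78.92 to 127.7 CPM in the other libraries at 120 kPa. Without pair 3 the KIF20A estimate was −0.26, and 10 of the 12 kinesins had estimates below 0, the exceptions being KIF22 at 0.05 and KIFC1 at 0.01. Reads of KIF4A can be shared with its intronless copy KIF4B, so its blocked log2 fold change of −0.36 is uncertain.

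The 5 genes of the spindle checkpoint, which holds anaphase until all kinetochores are attached, split by direction. None passed in the fit of group means or with the block shared by both stiffnesses, while the block within each stiffness called 1 lower and 2 higher. BUB1 and BUB1B had blocked log2 fold changes of −0.41 and −0.48, and the kinase TTK of −0.11. BUB1B was called with the block within each stiffness (−0.49, SE 0.15, adjusted p = 0.049). Without pair 3 BUB1 was at −0.20 and TTK at −0.17. BUB3, a checkpoint adaptor that is also present outside mitosis, stood at 360, 282.9 and 316.6 CPM in controls and 444.4, 365.1 and 400.5 CPM with siNemp1. Every siNemp1 library lay above every control library, with a blocked log2 fold change of 0.34 (SE 0.11, adjusted p = 0.074), or 0.34 (SE 0.07, adjusted p = 0.011) with the block within each stiffness. MAD2L1, which carries the wait signal as part of the inhibitor of CDC20, stood at 25.71, 19.61 and 29.91 CPM in controls and 39.28, 29.58 and 31.7 CPM with siNemp1. These overlapped only between siNemp1 replicate 2 and control replicate 3, and the blocked estimate was 0.43 (SE 0.15, adjusted p = 0.11), or 0.43 (SE 0.12, adjusted p = 0.040) with the block within each stiffness.

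The chromosomal passenger complex, the Aurora B kinase with its partners at centromere and midzone, gave no call among its 4 genes in either fit of all 10 libraries. BIRC5, survivin, stood at 117.2, 108.8 and 144 CPM in controls and 210.3, 168.4 and 116 CPM with siNemp1. Replicates 1 and 2 were higher and replicate 3 lower with siNemp1, and the blocked log2 fold change was 0.39 (SE 0.20, adjusted p = 0.28). Without pair 3 BIRC5 rose, with a log2 fold change of 0.70 (SE 0.12, adjusted p = 0.016). Since strandedness is not stated, any antisense reads at BIRC5 cannot be told apart from its own. INCENP, the scaffold of the complex, was low in all libraries, at 2.67, 3.636 and 3.285 CPM in controls and 2.458, 2.836 and 1.557 CPM with siNemp1. Its blocked estimate was −0.52 (SE 0.29, adjusted p = 0.31). AURKB itself had a blocked log2 fold change of 0.04 and CDCA8, borealin, of −0.33. Without pair 3 INCENP was at −0.29, AURKB at 0.12 and CDCA8 at −0.18, none of them called.

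The 9 genes of the cyclin-CDK switch and of anaphase promotion had the highest median at 120 kPa of the role groups, 0.09 with the block, and none passed. CCNB1, cyclin B1, which activates CDK1 at mitotic entry, stood at 134.5, 102 and 116.1 CPM in controls and 192.4, 144 and 103.9 CPM with siNemp1. CDK1, the kinase itself, stood at 34.85, 24.74 and 29.4 CPM in controls and 48.17, 33.64 and 22.75 CPM with siNemp1. Both were higher with siNemp1 in replicates 1 and 2 and lower in replicate 3, and their blocked log2 fold changes were 0.29 (SE 0.16, adjusted p = 0.32) and 0.18 (SE 0.18, adjusted p = 0.60). The sign for CDK1 was negative once trends with transcript length and GC content were removed (−0.10 with the block). PLK1, the polo kinase of spindle and centrosome, stood at 120.2, 121.8 and 121.8 CPM in controls and 119.3, 110.7 and 78.16 CPM with siNemp1. The groups did not overlap, with a narrow gap between 119.3 and 120.2 CPM, and the blocked estimate was −0.26 (SE 0.12, adjusted p = 0.19). The anaphase activator CDC20, its ubiquitin-conjugating partner UBE2C and securin, PTTG1, had blocked log2 fold changes of −0.01, −0.04 and −0.01. Without pair 3, 8 of the 9 genes had estimates above 0, with a median of 0.19: CCNB1 was at 0.46, CDK1 at 0.41 and CDC20 at 0.19, while PLK1 was at −0.11. None of the 9 was called there. PTTG1 has a near-identical intronless copy, PTTG2.

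Among 9 genes of spindle assembly and poles, 2 fell with the block and 8 had estimates below 0. ASPM (ENSG00000066279, chr1:197084128-197146694), which focuses microtubule minus ends at the poles, stood at 46.89, 33.44 and 36.1 CPM in controls and 32.44, 24.2 and 19.42 CPM with siNemp1. TPX2 (ENSG00000088325, chr20:31739271-31801805), which activates Aurora A and seeds microtubules around chromosomes, stood at 148.8, 137.5 and 128.3 CPM in controls and 125.4, 105.5 and 76.6 CPM with siNemp1. Neither gene overlapped between groups. Their blocked log2 fold changes were −0.63 (SE 0.12, adjusted p = 0.014) and −0.46 (SE 0.11, adjusted p = 0.026). AURKA, the pole kinase, had a blocked estimate of −0.20 and HMMR, a spindle-associated hyaluronan receptor, of 0.03. Without pair 3 AURKA was at −0.08 and HMMR at 0.11. The 2 cytokinesis genes gave no call in the fit of group means or with the block shared by both stiffnesses. The block within each stiffness called ANLN lower. ANLN, anillin of the contractile ring, stood at 196.5, 126.8 and 108.3 CPM in controls and 152.7, 115.6 and 58.78 CPM with siNemp1. Its blocked estimate was −0.46 (SE 0.17, adjusted p = 0.13). ANLN was at −0.31 without pair 3. ECT2, the activator of RhoA at the cell equator, stood at 36.89, 25.89 and 29.06 CPM in controls and 40.06, 26.8 and 21.71 CPM with siNemp1, with a blocked estimate of −0.08 (SE 0.16), or 0.04 without pair 3.

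**Figure D3:**
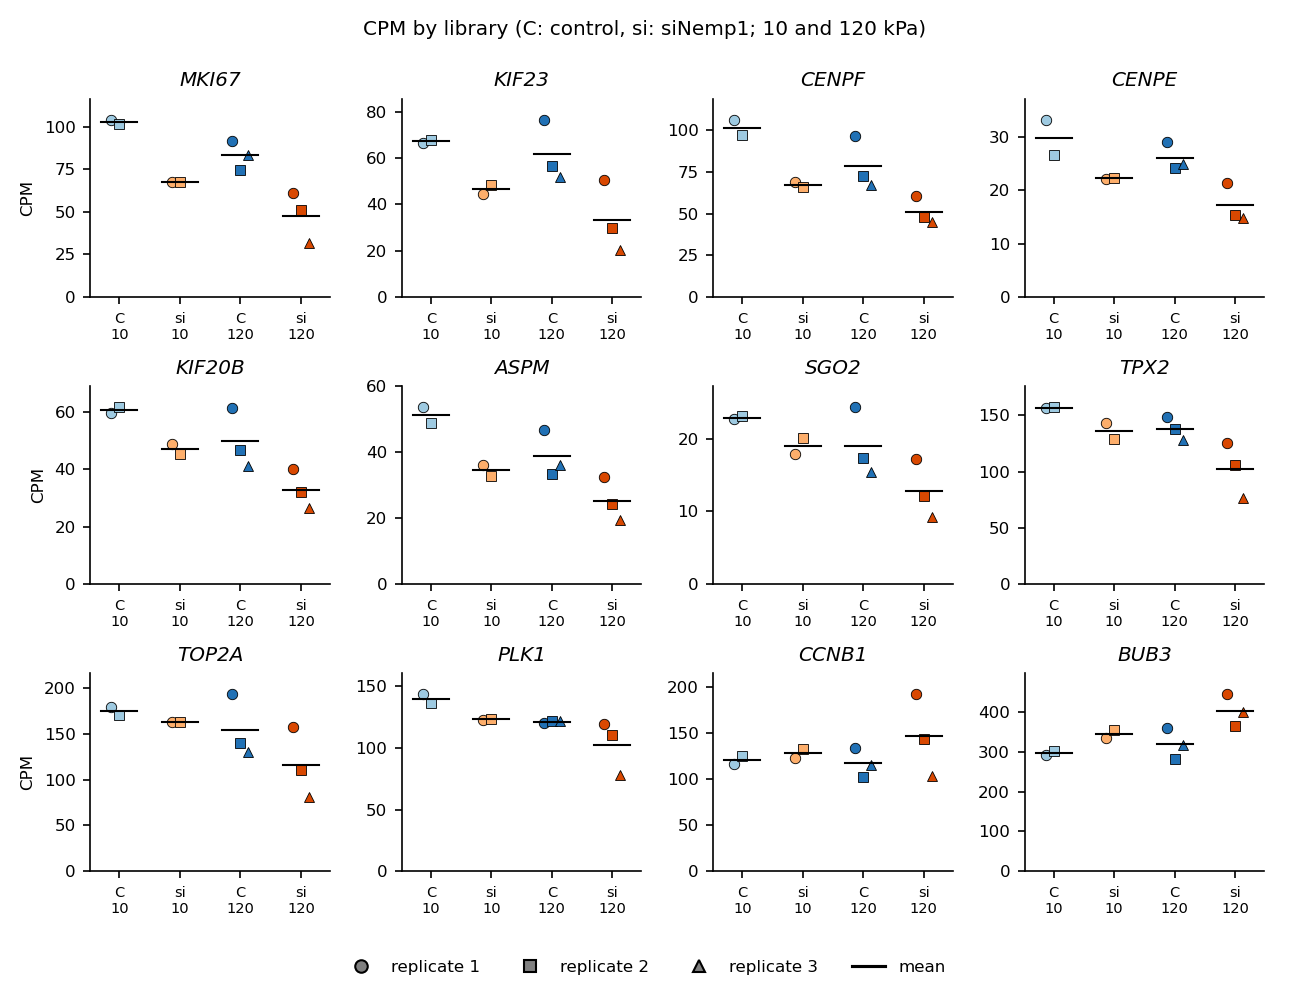
Each panel shows the CPM of 1 gene by library, with marker shape for the replicate number and a line for the group mean, on axes that start at 0. In MKI67, KIF23, CENPF, CENPE, KIF20B, ASPM and TPX2 the siNemp1 libraries lie below the control libraries of the same stiffness at both stiffnesses, whereas BUB3 lies above and CCNB1 overlaps.

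Read without a model, 11 of the 56 genes (19.6%) had every siNemp1 library below every control library at 120 kPa, against 6.95% of all tested genes. These were the fallen genes except SGO2, together with KIF14, PLK1, SMC2 and SMC4. The opposite order held for BUB3 alone, against 10.9% of all tested genes. Without the siNemp1 library of replicate 3, the same 11 genes were lower, against 12.2% of all tested genes, and BIRC5, BUB3, CCNB1 and NUF2 were higher, against 15.9%.

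On the soft substrate most estimates were again below 0, and replicates lay closer together. In the fit of group means, 0 of the 56 genes passed in edgeR (0% of all genes), 3 had an unadjusted p under 0.05, and DESeq2 called 0 (0.0722% of the genes it tested). The median log2 fold change was −0.11, against −0.002 over all tested genes, and 38 estimates were below 0. The block called 0 of the 56, against 0.0286% of all genes. MKI67 stood at 103.7 and 101.7 CPM in the 2 controls and 67.18 and 67.41 CPM with siNemp1, a log2 fold change of −0.61 (SE 0.24, adjusted p = 0.80). CENPF stood at 106.1 and 97.23 CPM in controls and 69.2 and 65.75 CPM with siNemp1 (−0.59, SE 0.19, adjusted p = 0.80). ASPM stood at 53.66 and 48.75 CPM in controls and 36.15 and 32.82 CPM with siNemp1 (−0.57, SE 0.23, adjusted p = 0.80). These 3 differences are wider than the gaps between replicates at 10 kPa, but the standard error of the fit also carries the wide spread at 120 kPa. KIF23 stood at 66.73 and 68.05 CPM in controls and 44.49 and 48.58 CPM with siNemp1, and KIF11 at 29.69 and 28.96 CPM in controls and 21.6 and 20.6 CPM with siNemp1. CCNB1 stood at 116.2 and 125.2 CPM in controls and 123.5 and 132.9 CPM with siNemp1, and its groups overlapped. BUB3 stood at 292.8 and 302.5 CPM in controls and 335.9 and 355.9 CPM with siNemp1, without overlap.

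A fit of the 10 kPa libraries alone, whose common dispersion was 0.00423 against 0.0387 in the fit of all 10, called 17 of the 56 genes. In it 16 fell and 1, BUB3, rose, while 17.3% of all genes were called and 9.19% fell. The 16 were ASPM, CDCA8, CENPE, CENPF, KIF11, KIF20B, KIF23, KIF2C, KNL1, MKI67, PLK1, PRC1, SMC2, SMC4, TPX2 and UBE2C. That fit has 2 residual degrees of freedom. At 10 kPa 30 of the 56 genes (53.6%) had both siNemp1 libraries below both controls, against 28.5% of all tested genes, and 8 had both above, against 28.8%. At both stiffnesses at once, 10 genes (17.9%) had every siNemp1 library below every control, against 4.83% of all tested genes: ASPM, CENPE, CENPF, KIF20B, KIF23, MKI67, PLK1, SMC2, SMC4 and TPX2. BUB3 was the only 1 of the 56 with the opposite order at both, against 8.01% of all tested genes. Without the siNemp1 library of replicate 3 the same 10 were lower at both, against 7.68%, and BIRC5 joined BUB3, against 11%.

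The comparisons at 10 and 120 kPa share no library. In the fit of group means, 34 of the 56 genes had estimates below 0 in both and 11 above 0 in both. Of all 13990 tested genes, 4886 were below 0 in both and 4958 above 0 in both. Across the 56 genes the log2 fold changes at both stiffnesses had a Pearson r of 0.780 and a Spearman rho of 0.751, against 0.165 and 0.453 across all 13990 tested genes. Without the siNemp1 library of replicate 3 at 120 kPa they were 0.812 and 0.787 across the 56, against 0.179 and 0.504 across 13884 tested genes. Genes of a set are not independent replicates, and they share libraries, depth and scaling within each stiffness. The difference between the knockdown effects passed for 0 of the 56 genes in either fit (0.00715% of all genes without the block and 0.0286% with it), and 0 had an unadjusted p under 0.05 without it. The largest differences were −0.51 (SE 0.37) for SPC25 and −0.49 (SE 0.46) for KIF20A, both with an adjusted p of 0.9999. Without that library they were −0.40 and −0.24.

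**Figure D4:**
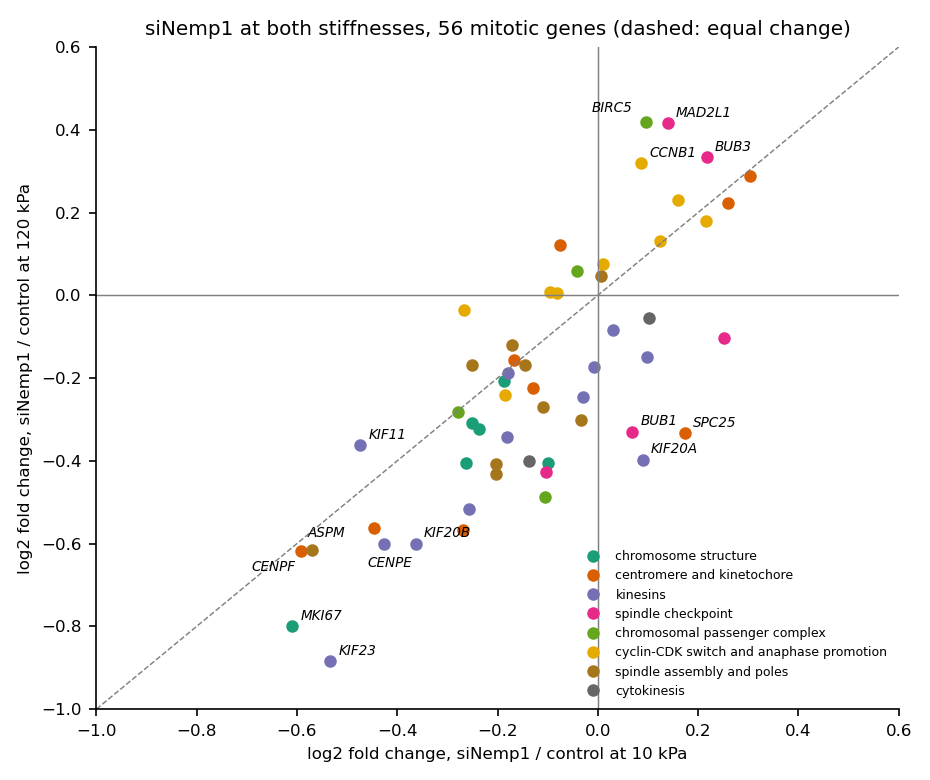
Each point is a mitotic gene, with its log2 fold change under siNemp1 at 10 kPa on the horizontal axis and at 120 kPa on the vertical axis, from the fit of group means, coloured by role. The genes spread along the dashed line of equal change, with 34 below 0 in both and 11 above 0 in both. Of all 13990 tested genes, which are not drawn, 4886 were below 0 in both and 4958 above 0 in both.

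Averaged over both stiffnesses, the fit of group means called 1 of the 56 genes, CENPF, which fell by 0.60 on the log2 scale (SE 0.12, adjusted p = 0.0499). In that comparison 1.29% of all genes were called and 0.429% fell. The call ended when any library at 10 kPa, control replicate 2 at 120 kPa or siNemp1 replicate 1 or 2 at 120 kPa was left out. With the block 10 genes fell and 0 rose, against 10.8% of all genes called, 4.17% that fell and 6.58% that rose: MKI67, SMC4, CENPF, KNL1, CENPE, KIF11, KIF20B, KIF23, ASPM and TPX2. Of these, SMC4, KNL1 and KIF11 were not called at 120 kPa with the same block, although the block within each stiffness called SMC4 and KNL1 there. Their averaged log2 fold changes with the shared block were −0.28 (SE 0.07, adjusted p = 0.038), −0.50 (SE 0.13, adjusted p = 0.037) and −0.44 (SE 0.11, adjusted p = 0.032) for SMC4, KNL1 and KIF11. Without pair 2 at 120 kPa, 6 of the 10 were still called, with 4.32% of all genes: ASPM, CENPE, CENPF, KIF20B, KIF23 and MKI67. Without pair 3, with 11.6% of all genes called, all 10 were called, with SMC2 lower and BIRC5 higher. The block within each stiffness, with 18.2% of all genes called, called 16 lower, the 10 among them, and BUB3 higher.

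Between the stiffnesses no mitotic gene passed the test. In control cells 0 of the 56 genes differed between 120 and 10 kPa (0.0143% of all genes), 1 had an unadjusted p under 0.05, and the median log2 difference of −0.13 became −0.02 with the block, which ties the replicate numbers of both stiffnesses. It was −0.23 without control replicate 1 at 120 kPa and −0.07 without control replicate 3 there. In siNemp1 cells 0 differed (0% of all genes), 9 had an unadjusted p under 0.05, and the median was −0.25, or −0.18 with the block. It was −0.13 without siNemp1 replicate 3 at 120 kPa and −0.44 without siNemp1 replicate 1 there. CENPF stood at 106.1 and 97.23 CPM in controls at 10 kPa against 67.1 to 96.36 CPM at 120 kPa, with no overlap and a log2 difference of −0.37 (SE 0.17, adjusted p = 0.99). In controls 12 of the 56 genes had every library at 120 kPa below both at 10 kPa (21.4%, against 11.9% of all tested genes).

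Other mitotic genes were read from lists that hold none of the 57. Of 57 tested further genes of G2 and mitosis, the block at 120 kPa called 3 lower (5.26%) and 1 higher, against 2.51% and 6.24% of all tested genes. Among those lower, CIT, citron kinase of the midbody, had a log2 fold change of −0.52 (SE 0.12, adjusted p = 0.025), and SPAG5, astrin of spindle and kinetochore, had −0.70 (SE 0.15, adjusted p = 0.022). CKS1B, a small CDK subunit, rose by 0.57 (SE 0.13, adjusted p = 0.025). Of 51 genes of the mitotic machinery that are present throughout the cycle, 1 fell, the microtubule polymerase CKAP5 (−0.54, SE 0.09, adjusted p = 0.0097), and 1 rose, the kinetochore subunit NSL1 (0.52, SE 0.12, adjusted p = 0.023). Each of these is 1.96% of that list, under the shares of all genes. Without pair 3, CKS1B and CKAP5 were still called (0.70 and −0.58), while CIT, SPAG5 and NSL1 were at −0.51, −0.58 and 0.45 and were not. The first list then had 0 lower and 2 higher, CKS1B and CKS2, and a median of −0.03. The medians of the lists were −0.17 and −0.09, against −0.25 for the 56 genes and 0.006 for all genes. Without the block 0 genes of either list passed (0% of all genes).

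Of 24 tested regulators of this programme, 1 fell at 120 kPa with the block (4.17%, against 2.51% of all genes). FOXM1, the activator named above, stood at 45.85, 45.67 and 40.86 CPM in controls and 39.87, 32.66 and 24.7 CPM with siNemp1, without overlap. Its log2 fold change was −0.47 (SE 0.11, adjusted p = 0.027) with the block and −0.45 (SE 0.16, adjusted p = 0.18) without it. Without pair 3 it was −0.38 (SE 0.11, adjusted p = 0.074). At 10 kPa FOXM1 stood at 64.11 and 60.88 CPM in controls and 45.88 and 43.53 CPM with siNemp1. MYBL2 had a blocked log2 fold change of 0.08 at 120 kPa, E2F1 of −0.21, LIN9 of the DREAM and MYB-MuvB core of 0.30 and the pocket protein RBL2 of −0.19, none past the threshold. At 10 kPa MYBL2 stood at 9.803 and 9.76 CPM in controls and 7.8 and 6.969 CPM with siNemp1, without overlap. E2F1 was lower there without overlap too, an order that 28.5% of all tested genes had, while LIN9 and RBL2 overlapped. CDKN1A, the CDK inhibitor p21, stood at 260.4, 505.4 and 839 CPM in controls and 325.1, 658.9 and 1274 CPM with siNemp1 at 120 kPa. It was lowest in replicate 1 and highest in replicate 3 of both groups, and its blocked log2 fold change was 0.44 (SE 0.25, adjusted p = 0.34). With the block within each stiffness CDKN1A rose, by 0.44 (SE 0.08, adjusted p = 0.0099), in a fit that called 10% of all genes higher at 120 kPa. At 10 kPa CDKN1A stood at 352 and 366.3 CPM in controls and 367.4 and 320.3 CPM with siNemp1, and the groups overlapped.

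Other measures differed between the libraries too. The share of counts from mitochondrial genes was 1.729%, 1.403% and 0.9131% in controls at 120 kPa and 1.06%, 0.8265% and 0.7091% with siNemp1, and thus also lowest in replicate 3. The summed CPM of 8 fibroblast and mesenchymal markers was 2120 in that siNemp1 library and 3068 to 4194 in the other 9 libraries. That of 13 epithelial and pigment epithelial markers was 1509 there and 1591 to 2137 elsewhere. Both sums rest mainly on few genes. In that library VIM stood at 1605 CPM and THY1 at 255.2, and KRT8 at 755.4 and KRT18 at 551.1. Several markers, such as COL3A1 and RPE65, were at or near 0. Not every marker was lowest there: KRT7 stood at 56.88 CPM, against 23.94 to 61.2 elsewhere. The order differed elsewhere: control replicate 1 at 120 kPa had the highest mitotic share (0.3715%) and the second-lowest epithelial sum (1591), and control replicate 2 there had a lower mitotic share (0.3092%) with the highest epithelial sum (2137) and a fibroblast sum of 3985. Of 5 blood cell markers, HBB was at 0 in all 10 libraries, CD3E at most 0.2204 CPM, and PTPRC and CD14 at most 1.803 and 2.645 CPM. The fifth, CD68, a lysosomal protein of macrophages that other cells also make, stood at 1166, 939.4 and 711.1 CPM in controls at 120 kPa and 854.4, 711.3 and 491.9 CPM with siNemp1. It was at 932.3 to 1079 CPM at 10 kPa and lower with siNemp1 within each replicate number. Of 3 endothelial markers, CDH5 was at 0, and PECAM1 and VWF were under 1 CPM. The part of these measures in the result was not tested.

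The change at 120 kPa varied with transcript length. With the block, the 12 genes whose principal transcript in GENCODE 29 has at least 5000 bases had a median log2 fold change of −0.55, the 25 between 2500 and 5000 bases of −0.36, and the 19 under 2500 bases of −0.01. Over all tested genes the medians for the same classes were −0.13, −0.02 and 0.14. Spearman's rho between length and log2 fold change was −0.606 over the 56 genes and −0.290 over 13826 tested genes, or −0.683 over the 56 without pair 3, as a description across genes that share libraries. BUB3 and MAD2L1 were the exceptions among the long transcripts. Once length and GC trends were removed from each library, rho was −0.482 over the 56 genes and −0.043 over all. In that blocked fit, which called 7.93% of all genes, 12 of the 56 fell and BUB3 rose, the median was −0.30, and 7 of the 8 genes named above remained called, MKI67 being the exception.

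**Figure D5:**
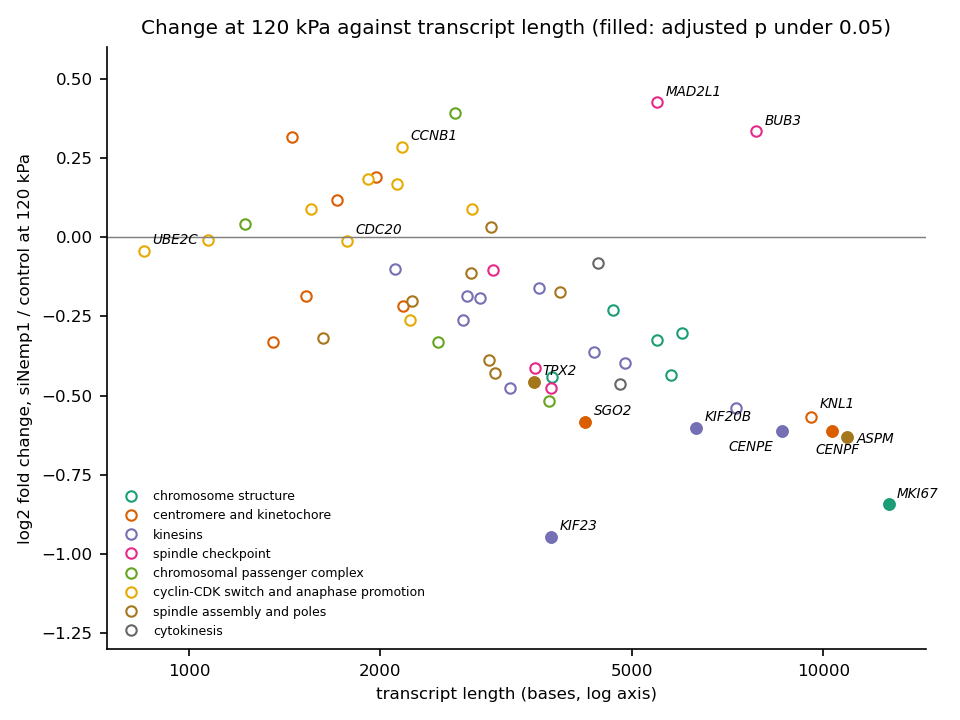
Points are the 56 mitotic genes, with principal transcript length on a log axis against the blocked log2 fold change of siNemp1 over control at 120 kPa, and filled points have an adjusted p under 0.05. The shortest of the 8 filled points is TPX2 at 3497 bases, and BUB3 and MAD2L1 are the long transcripts above 0.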

How the data were processed

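Total RNA of hTERT RPE-1 cells was depleted of ribosomal RNA with RNase H and reverse transcribed from random hexamers, per the labels' protocols. For strandedness the sources used here state nothing. Salmon 1.80, Trimmomatic 0.33, FastQC 0.11.9, edgeR and GRCh38 appear in the submitters' processing notes. The deposited table holds expected counts per gene for 10 libraries, which the authors left unscaled between libraries. Expected counts were rounded to whole numbers.

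Genes were filtered with filterByExpr over the 4 groups (13990 left) and scaled by TMM. One edgeR 4.0.16 quasi-likelihood model (limma 3.58.1, R 4.3.3; robust, two-sided) of 4 group means was fitted to all 10 libraries, with 6 residual degrees of freedom. An adjusted p under 0.05 over all tested genes was called. CPM use TMM-scaled library sizes. A log2 fold change is siNemp1 minus control, or 120 minus 10 kPa. Transcript lengths and positions came from GENCODE 29 (GRCh38), matched for 98.8% of tested genes.

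Replicate numbers in the titles are shared between groups. The correlation across genes of the deviations of same-numbered libraries was 0.426, 0.157 and 0.359 at 120 kPa and 0.0171 at 10 kPa, so the numbers were taken to pair the libraries at 120 kPa from the data. The blocked fit (4 residual degrees of freedom) is therefore printed beside results it changes. Its block is shared by both stiffnesses and so also ties replicates 1 and 2 between them and at 10 kPa, which the correlations do not bear out. A block within each stiffness (3 residual degrees of freedom) makes no such tie across stiffnesses, and its calls are given beside. Replicate 3 exists only at 120 kPa.

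Alternatives were the block within stiffness, length and GC trends removed (mgcv 1.9.3), DESeq2 1.42.0, other scalings and filters, only the groups compared, and each library left out. Blocked fits without a pair or with other scalings, and group orders without siNemp1 replicate 3 at 120 kPa, were added after seeing the data. The edgeR fit of group means and the fit with the shared block were tried on simulated data, for the comparison at 120 kPa only. For the shared block the simulated replicate effect was itself shared by both stiffnesses. The other fits were not tried on simulated data. The genes, lists and tests were chosen with earlier results of these data known. Library values are given for genes called in either fit, the 2 smallest p in each role group, and CCNB1, CDK1, PLK1 and TOP2A. Of other lists, genes called in either fit and fixed regulators are named, except 1 that is not reported here. Promoters are those of the 2 largest falls and the 2 smallest changes at 120 kPa with the block.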

Additional observations from a re-analysis of the deposited data

How the results depend on the processing

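The count of mitotic genes called depended on how replicates were handled, while the median stayed below 0 at 120 kPa, at 10 kPa and for the average under every alternative. At 120 kPa 0 of 56 genes were called without a replicate block, 8 with it, 18 (16 lower, 2 higher) with the block within stiffness, 13 with the block and length and GC trends removed, 6 with DESeq2 and 6 with no filter on low counts. With the replicate block the count was 22 without pair 1, 7 without pair 3, 8 with DESeq2 size factors and 13 with upper-quartile scaling. Leaving out each library in turn gave 0 to 1. At 10 kPa 17 were called from those libraries alone and 1 with the replicate block without pair 1. The 10 kPa median was −0.1501 with length and GC trends removed, −0.1489 with these and the replicate block, and −0.132 with the block without pair 2. For the average the count of 1 became 10 with the replicate block, 17 with the block within stiffness, 15 with the block and trends removed, 6 with DESeq2, 0 in edgeR with either upper-quartile scaling or DESeq2 size factors, 7 with no filter and 2 with at least 5 CPM in at least 2 libraries. With the replicate block it was 24, 6 and 12 without pairs 1, 2 and 3, 10 with DESeq2 size factors and 12 with upper-quartile scaling, and 0 to 3 with each library left out. The share of all genes called moved with these counts. For the average it was 1.29% without a block, 10.8% with it, 18.2% with the block within stiffness, 8.36% with the block and trends removed, 4.11% with DESeq2, 2.76% with no filter, and 18%, 4.32% and 11.6% with the block without pairs 1, 2 and 3. At 120 kPa it was 0%, 8.75%, 15.5%, 7.93%, 2.73% and 2.73% in the first 6 of these, and 11.2%, 0.0144% and 5.49% in the last 3. Between stiffnesses in siNemp1 cells 1 gene was called with no filter and 5 with the replicate block without pair 1. No share of all genes is printed beside these counts between stiffnesses. The same holds for other scalings, the 5 CPM filter, each library left out, and 10 kPa without pair 1. Such counts are therefore not read against the rest of the genes. The stiffness median in control cells turned to 0.1558 with the replicate block without pair 2 and to 0.001702 with the block and DESeq2 size factors. Leaving out each library in turn, the stiffness median ranged from −0.4429 to −0.1315 in siNemp1 cells and from −0.2338 to −0.07359 in controls. The median difference between knockdown effects ranged from −0.2892 to 0.003034 with each library left out. A lone library left at 10 kPa is assumed to vary like the other groups. The cause of these differences was not tested.

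Some single genes changed sign, none of them called. With length and GC trends removed, without and with the replicate block, CDK1 was −0.05737 and −0.09587 at 120 kPa, −0.03232 and −0.03958 at 10 kPa, and −0.04484 and −0.06772 on average. CCNB1 was −0.02431 and −0.02445 at 10 kPa, INCENP 0.03619 and 0.02297 at 10 kPa, and ECT2 −0.0375 and −0.04454 on average. With each library left out in turn, CDK1 at 120 kPa ranged from −0.0911 to 0.4233, ECT2 at 120 kPa from −0.3533 to 0.09964, ECT2 on average from −0.1266 to 0.09976, and INCENP at 10 kPa from −0.5526 to 0.2171. ECT2 at 120 kPa was 0.04196 with the replicate block without pair 3. ECT2 on average was −0.05039 and −0.03441 with the block without pairs 1 and 2, −0.007109 with upper-quartile scaling and −0.01581 with that and the block. Depth limits low genes such as CENPA and INCENP, where each library holds few counts.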
